A study of Mus musculus with 6 samples.

Results

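Imprinted genes are expressed mainly from the allele inherited from 1 parent, and the H3K4me3 peaks at the starts of 46 such mouse genes are described here. All 46 listed genes were found by symbol among the 55341 gene symbols of the GENCODE vM21 annotation, and 39 of them were protein-coding. A gene was called marked in a list when a peak of that list lay within 1 kb of any annotated transcript start, coding or noncoding. The strength of a marked gene was the percentile of its strongest peak's score among all peaks of the same list, so a value of 50 stands for the median peak of that list. The width was that of the same peak.

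The peaks came from H3K4me3 ChIP-Seq of STHdh cells, conditionally immortalised mouse striatal progenitor lines used as a culture model of Huntington's disease. Q7SST came from wild-type cells (STHdh7 in the labels) and Q111SST from mutant cells (STHdhQ111), in which glutamine codons of the huntingtin gene are expanded, and both received vehicle. The other 4 lists came from STHdhQ111 cells given cyproheptadine, loxapine, diacylglycerol kinase inhibitor II (DKI) or meclizine, each at 10 µM. All cells were of strain C57BL/6 and spent 24 hours without serum, so serum starvation is common to every list, controls included. Each genotype was 1 immortalised line, and genotype and line cannot be told apart. There was 1 peak list per condition and so no replicate, and the differences between lists given here are descriptions of these lists without a test.

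Imprinting is set in the germline by DNA methylation of control regions on the maternal or the paternal allele, which is kept after fertilisation by the zinc finger protein ZFP57 with TRIM28. At many paternally expressed genes the control region is the promoter itself, methylated on the maternal allele and open on the paternal allele, where H3K4me3 is found. Several imprinted genes, among them Peg3, Ndn, Magel2 and Nnat, are known for expression in the developing brain. The cells were of an inbred strain and the files hold peaks, so the parental alleles cannot be told apart here.

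The lists held between 30758 peaks under DKI and 45564 under loxapine, 227418 in all. The read totals behind them are unknown, and a shorter list may come from fewer reads or lower enrichment. As a check of the cell type, a peak was present at 11 of 12 striatal and neural progenitor markers in Q7SST, at 9 in Q111SST and at 7 to 9 in the compound lists. Of 6 markers of mature striatal neurons, 4 were marked in Q7SST, 2 in Q111SST and 1 or 2 in the compound lists, and the dopamine receptor genes Drd1 and Drd2 were marked in none. Of 7 fibroblast or mesenchyme markers, 4 or 5 were marked in each list. Of 4 endothelial markers 1 or 2 were marked in each list, with Kdr in all 6, of 5 trophoblast markers Eomes alone in each list, and of 4 blood or microglia markers Aif1 alone, in Q7SST and Q111SST. The liver markers Alb, Afp and Ttr had no peak.

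The DNA under the peaks is shown first for 5 paternally expressed genes whose marked start lies at a maternally methylated control region. These 5 are not typical, since the 1 kb around their Q111SST peak centre holds 4 to 8 copies of the hexamer described next. Apart from Usp29, which shares the Peg3 peak, the other genes marked at such a start held fewer. Airn had 3 copies there, and Kcnq1ot1 and Zrsr1 had 0. Each stretch is the 200 bases with the most copies of the ZFP57 core hexamer TGCCGC inside the Q111SST peak and outside annotated untranslated regions, read along the gene's strand from the RefSeq GRCm38.p6 genome. Capitals mark the hexamer on either strand. The Snrpn stretch is chr7:60004325-60004524 (minus strand), the Mest stretch chr6:30738336-30738535 (plus), the Peg13 stretch chr15:72809858-72810057 (minus), the Peg3 stretch chr7:6729267-6729466 (minus) and the Plagl1 stretch chr10:13091058-13091257 (plus).
Snrpn: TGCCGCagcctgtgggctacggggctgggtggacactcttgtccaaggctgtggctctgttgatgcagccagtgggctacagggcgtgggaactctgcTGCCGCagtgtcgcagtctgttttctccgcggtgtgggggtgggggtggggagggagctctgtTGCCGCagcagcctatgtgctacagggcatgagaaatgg
Mest: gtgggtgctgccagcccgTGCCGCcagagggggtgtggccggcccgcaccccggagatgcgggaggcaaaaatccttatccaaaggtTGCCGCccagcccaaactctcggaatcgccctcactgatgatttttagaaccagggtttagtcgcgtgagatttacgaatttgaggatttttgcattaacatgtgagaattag
Peg13: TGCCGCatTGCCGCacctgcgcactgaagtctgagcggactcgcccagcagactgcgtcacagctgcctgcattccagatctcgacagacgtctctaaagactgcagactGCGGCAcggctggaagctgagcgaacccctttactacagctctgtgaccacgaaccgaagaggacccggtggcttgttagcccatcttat
Peg3: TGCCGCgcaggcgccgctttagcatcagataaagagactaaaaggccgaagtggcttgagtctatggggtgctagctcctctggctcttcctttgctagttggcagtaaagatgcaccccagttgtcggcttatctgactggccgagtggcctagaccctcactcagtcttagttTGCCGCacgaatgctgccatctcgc
Plagl1: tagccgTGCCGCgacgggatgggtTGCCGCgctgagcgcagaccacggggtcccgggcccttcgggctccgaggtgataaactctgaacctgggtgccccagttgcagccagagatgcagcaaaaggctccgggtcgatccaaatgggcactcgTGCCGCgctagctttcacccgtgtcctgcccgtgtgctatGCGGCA

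The hexamer was then counted on both strands in the 1 kb around the centre of the Q111SST peak. For Snrpn, which encodes a small nuclear ribonucleoprotein at the Prader-Willi locus, 8 copies were present. Mest, a paternally expressed hydrolase gene, had 6, and the noncoding RNA gene Peg13 had 5. Such counts were rare among all 17070 genes marked in Q111SST, of which 60.3% had no copy, 12.2% had 2 or more and 0.346% had 5 or more.

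Among the 28 imprinted genes marked in Q111SST, 57.1% had no copy at their strongest peak, 8 had 2 or more (28.6%) and 3 had 5 or more (10.7%). The 8 were Airn, Peg3, Usp29, Peg10, Mest, Plagl1, Snrpn and Peg13, of which Peg3 and Usp29 share a peak. From general knowledge, 18 starts of the 46 genes were assigned to maternally methylated germline regions, called germline starts below. The strongest peak of all 8 genes stood at such a start. The assignment was made after the peaks had been seen, and it counted 1 start of Gnas although the start of the extra-large Gnas protein lies at another such region. Of these starts 13 were marked in Q111SST, by 11 distinct peaks, and 11 of the 13 had 2 or more copies, beside 12.0% of the 20025 start clusters of all genes marked in Q111SST, each at its strongest peak. At the strongest peaks of Sgce, Gnas and Impact there was no copy, and at their germline starts there were 2. The exceptions were Kcnq1ot1 and Zrsr1, with no copy in the central 1 kb of peaks that were wider than 3 kb. The GC content of the windows had a median of 55.0% at germline starts and 55.6% over those start clusters, and the number of CpG had medians of 55 and 48. A hexamer match is a description of the sequence and does not show binding.

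**Figure D1:**
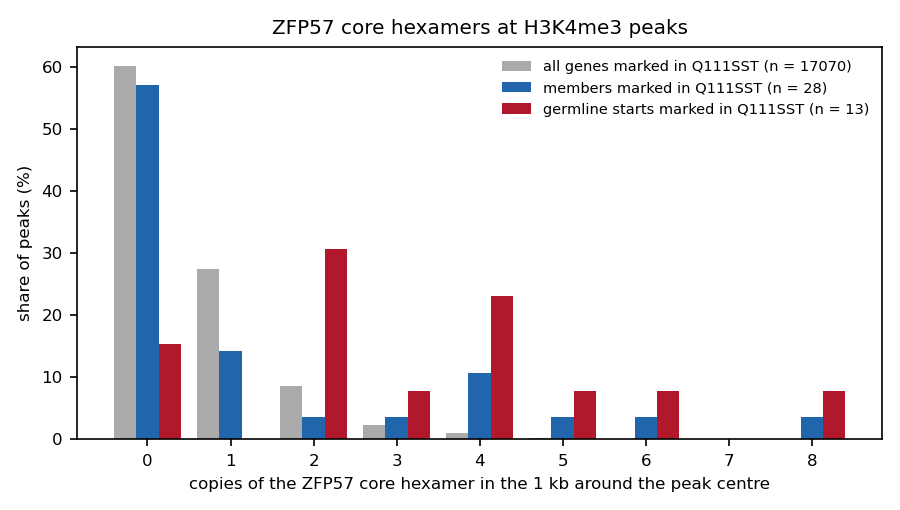
Share of Q111SST peaks (y axis, percent) by the number of TGCCGC hexamers on either strand in the 1 kb around the peak centre (x axis), for all 17070 marked genes in grey, the 28 marked imprinted genes in blue and the 13 marked germline starts in red. Grey and blue count a gene's strongest peak and red 1 start cluster. Most peaks of all genes hold 0 copies, whereas 11 of 13 germline starts hold 2 or more.

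In the RefSeq promoter table, which gives 250 bases before and 50 after a start, 37 of the 46 genes were matched, with 54 promoters. H19, Peg10, Sgce, Cdkn1c, Rtl1, Impact, Dcn, Trappc9 and Peg13 had no entry. The hexamer was present in 24.1% of the imprinted promoters and in 11.6% of all 32851 promoters. The share was 30.0% for the imprinted promoters marked in all lists and 20.0% for those marked in none. The median GC content was 57.5% at the imprinted promoters and 52.7% at all promoters, and its part in the hexamer share was not tested. The median ratio of observed to expected CpG was 0.591 at the imprinted promoters and 0.384 at all promoters. Among the imprinted promoters it was 0.702 for the 20 marked in all lists and 0.385 for the 25 marked in none.

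A marked start was found for 31 of the 46 imprinted genes in Q7SST (67.4%, Wilson 95% interval 53.0% to 79.1%), beside 31.3% of all annotated genes and 59.9% of protein-coding genes. In Q111SST 28 were marked (60.9%, beside 30.8% and 58.3%). Under cyproheptadine 24 were marked (52.2%, beside 28.4% and 55.3%), and under loxapine 27 (58.7%, beside 30.9% and 58.1%). Under DKI 26 were marked (56.5%, beside 28.5% and 55.7%), and under meclizine 29 (63.0%, beside 30.8% and 58.6%). The shares of imprinted genes thus lay near those of protein-coding genes in each list, and the interval, which covers counting error only, held the protein-coding share in all 6.

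Marking was mostly shared. In all 6 lists 24 of the 46 were marked (52.2%, beside 26.6% of all and 53.4% of protein-coding genes), and 14 were marked in none (30.4%, beside 65.4% of all and 37.1% of protein-coding genes). The 24 became 12 at a stricter score threshold (26.1%, beside 20.9% of all genes), and 12 where the peak had to overlap a start (26.1%, beside 19.9%). The other 8 were marked in 1 to 5 lists (17.4%, beside 8.02% of all and 9.51% of protein-coding genes). Nnat, Magel2 and Mcts2 were marked in Q7SST alone. Ascl2 was marked in Q7SST and meclizine, and Cdkn1c in Q7SST, Q111SST and meclizine. Ppp1r9a was missing under cyproheptadine and DKI, Asb4 in Q7SST and under cyproheptadine, and Mkrn3 under cyproheptadine.

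**Figure D2:**
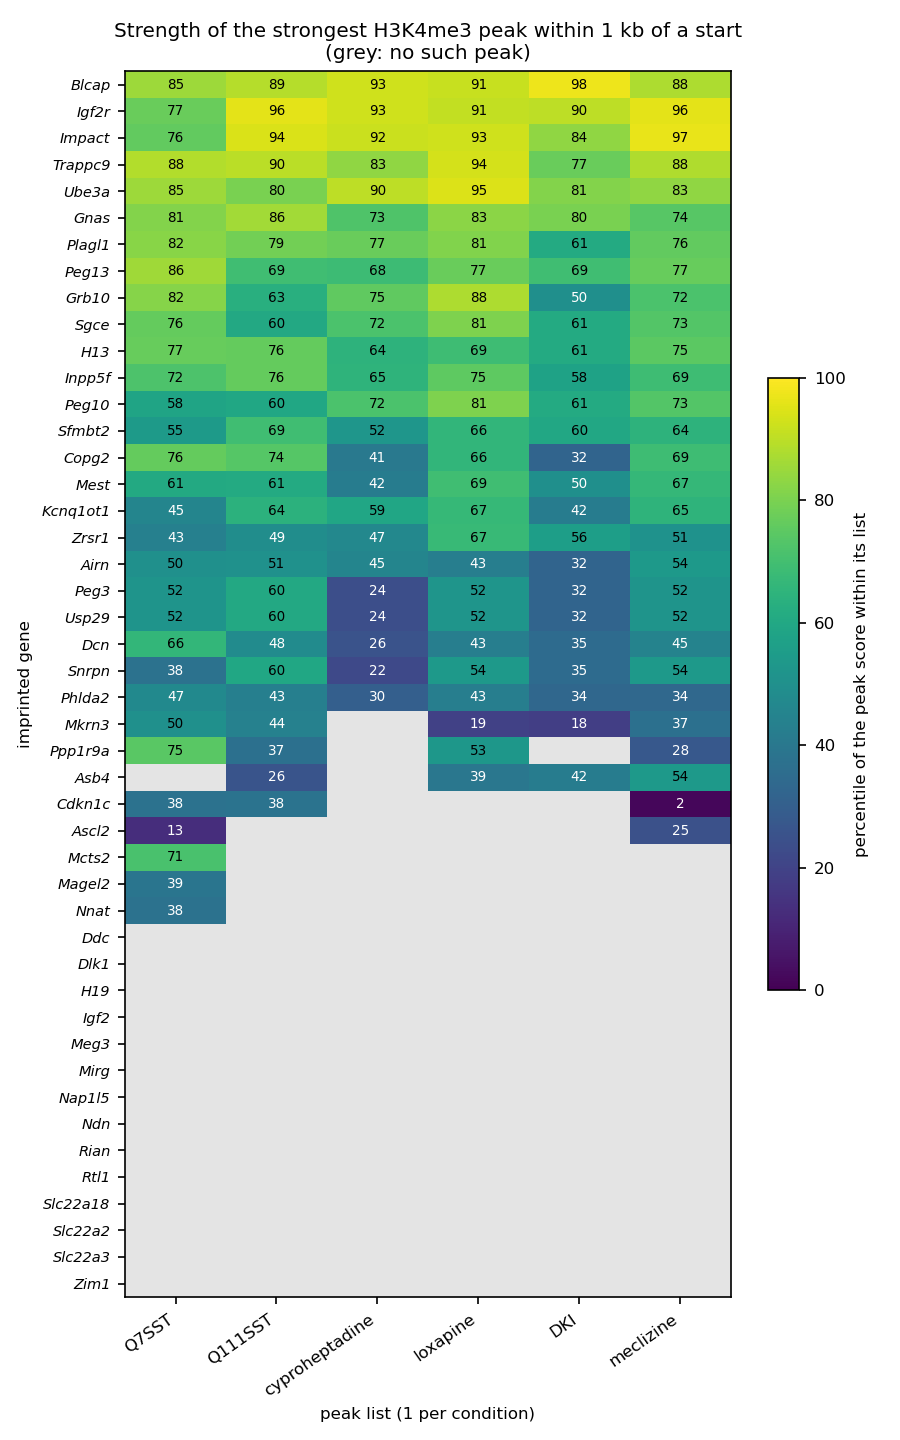
Strength of the strongest peak of each of the 46 imprinted genes (rows, ordered by the number of lists and then the mean) in each peak list (columns), as the percentile of its score within the list, with grey for no peak within 1 kb of a start. The 24 genes at the top are marked in every list and the 14 at the bottom in none, and Mcts2, Magel2 and Nnat have a value in Q7SST alone.

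The marked imprinted genes were weaker than marked genes in general. Their median percentile was 66.4 in Q7SST against 78.3 over all marked genes, 62.2 against 80.7 in Q111SST, and 64.8 against 77.6 under cyproheptadine. It was 69.0 against 80.8 under loxapine, 56.7 against 74.3 under DKI and 66.7 against 78.3 under meclizine. The order was the same in all 6 lists. Peg3 and Usp29 shared their strongest peak in every list, and Peg10 and Sgce did so in the 4 compound lists, so the 28 genes marked in Q111SST stood on 27 distinct peaks.

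Germline starts stood low beside marked start clusters in general. Of the start clusters of all genes, 19.8% were marked in all 6 lists. The 18 germline starts were assigned after the peaks had been seen, so a comparison with that share is no test. Of the 18, 13 were marked in all 6 lists, by 11 distinct peaks in Q111SST. Their median percentile was 51.7 in Q7SST, 60.2 in Q111SST, 46.5 under cyproheptadine, 67.4 under loxapine, 49.9 under DKI and 64.9 under meclizine. Since these values are for 1 start cluster and not for a gene's strongest peak, they were set beside the strongest peak of every marked start cluster of all genes, with medians of 76.8, 79.0, 76.5, 79.0, 72.6 and 76.5 in the same order of lists. Below that median lay all 13 marked in Q111SST and under DKI, 12 of 13 under cyproheptadine and 10 of 13 under loxapine. In Q7SST 13 of 15 did so, and under meclizine 13 of 14. The region at the extra-large Gnas start was not counted. The nearest peak to that start was above the median in Q111SST, at 81.3, and below it in the other lists. The 13 marked in all lists became 5 at the stricter threshold and 4 where the peak had to overlap the start.

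**Figure D3:**
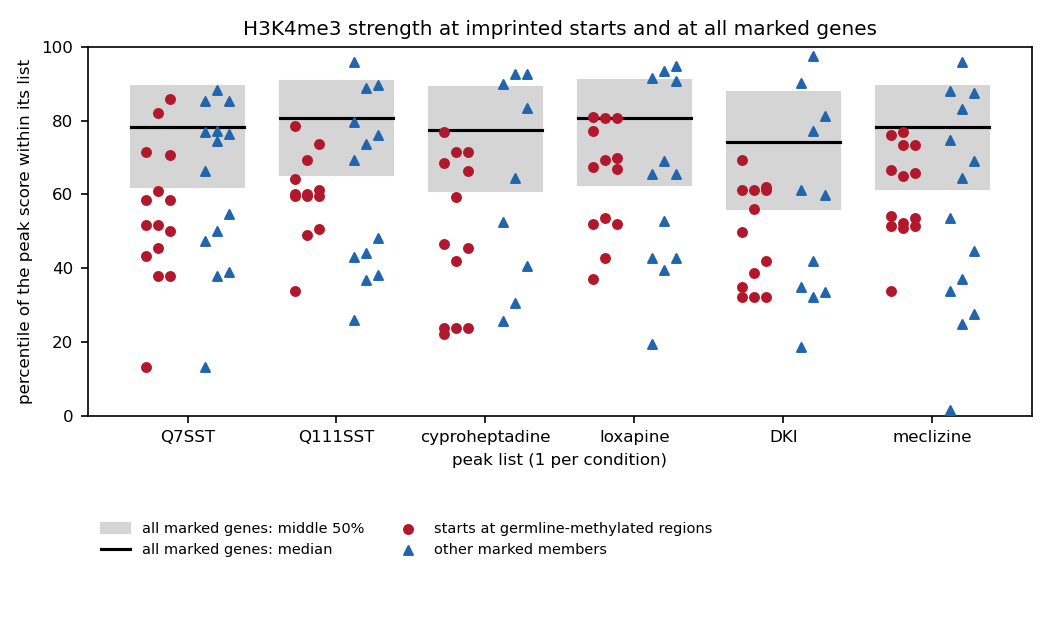
Percentile of the peak score within its list (y axis) for each peak list (x axis). Red circles are marked germline starts, blue triangles are the strongest peaks of marked imprinted genes without such a start, grey boxes span the middle 50% of all marked genes and the black line is their median, which takes each gene's strongest peak, whereas a red circle is 1 start cluster. Most red circles lie below the black line in every list, and the blue triangles lie both below and above it.

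Among the paternally expressed genes, Snrpn was at percentile 37.8 in Q7SST, 59.6 in Q111SST, 22.0 under cyproheptadine, 53.6 under loxapine, 34.8 under DKI and 53.5 under meclizine. Its mark lay at the later of its start clusters, where cyproheptadine, DKI and Q7SST were low beside Q111SST. Peg3, a zinc finger gene, and Usp29, a ubiquitin protease gene read in the opposite direction, shared a peak at 51.7 in Q7SST, 60.2 in Q111SST, 23.9 under cyproheptadine, 52.0 under loxapine, 32.2 under DKI and 51.6 under meclizine. The cyproheptadine and DKI lists again held the lowest values. In Q7SST this peak was 3163 bp wide and covered the start of Peg3, whereas in the other lists it was 873 to 1590 bp wide and lay downstream of that start.

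Airn, the noncoding RNA that silences Igf2r in cis, was at 50.0 in Q7SST, 50.7 in Q111SST, 45.4 under cyproheptadine, 42.7 under loxapine, 32.2 under DKI and 54.2 under meclizine. Kcnq1ot1, the noncoding RNA that silences its neighbours on the paternal allele, was at 45.4, 64.2, 59.3, 66.8, 41.9 and 64.9 in the same order of lists, which is kept below wherever 6 values stand without list names. The lowest Airn value was that of DKI, and for Kcnq1ot1 DKI and Q7SST were the low lists. Kcnq1ot1 was also the 1 imprinted gene whose strongest peak was at least 3 kb wide in every list, with 3136, 3183, 3470, 3633, 3209 and 3074 bp.

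Mest was at 60.8 in Q7SST, 61.3 in Q111SST, 41.8 under cyproheptadine, 69.5 under loxapine, 49.9 under DKI and 66.7 under meclizine. Plagl1, a zinc finger growth regulator, was higher and steadier, at 82.0, 78.6, 77.1, 81.1, 61.3 and 76.2, and DKI held the lowest value. Peg13 was at 85.9, 69.3, 68.4, 77.2, 69.2 and 76.9, with Q7SST highest.

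Peg10, a gene derived from a retrotransposon, was at 58.5 in Q7SST, 59.6 in Q111SST, 71.5 under cyproheptadine, 80.8 under loxapine, 61.3 under DKI and 73.3 under meclizine. The peak between Peg10 and Sgce, which encodes epsilon-sarcoglycan and is read the other way, covered both starts in Q7SST and Q111SST, at 3151 and 2788 bp. In the compound lists it was 647 to 1164 bp wide and lay on the Peg10 side. Sgce was at 76.5, 60.2, 71.5, 80.8, 61.3 and 73.3, where the first 2 values are those of its second start, 27.4 to 76.5 over the lists, and the compound values are those of the peak shared with Peg10.

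Zrsr1, a gene inside an intron of Commd1 that encodes a splicing factor relative, was at 43.4 in Q7SST, 49.1 in Q111SST, 46.5 under cyproheptadine, 67.4 under loxapine, 55.9 under DKI and 50.9 under meclizine. Its peak was 3186, 3897 and 3561 bp wide in Q7SST, Q111SST and meclizine and 2521 to 2978 bp in the rest. Impact, a translation regulator gene, was among the strongest at its first start, which has no basic transcript, with 76.0, 94.2, 91.9, 93.0, 83.6 and 96.6. At its germline start, within the annotated gene and the only start cluster with a basic transcript, it stood at 62.0 to 73.6. The peaks there were 3019 to 3528 bp wide.

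Inpp5f, which encodes an inositol phosphatase, also had its strongest peak at its first start. Its first start was at 72.3 in Q7SST, 76.2 in Q111SST, 65.2 under cyproheptadine, 75.2 under loxapine, 57.5 under DKI and 69.1 under meclizine. The later germline start, from which a shorter paternal transcript is read in brain, was marked under meclizine alone, at 52.2. Gnas encodes the alpha subunit of the stimulatory G protein and several other products. Its exon 1A germline start was weak, at 13.2, 33.9, 23.9, 37.1, 38.6 and 33.7, while the start of the G protein subunit was at 81.4, 84.6, 72.6, 77.9, 53.5 and 74.1. The latter peaks lay near the edge of the window, 728 to 827 bp from the last GENCODE start of that cluster and 1009 to 1108 bp from its RefSeq start, which they did not mark. A further start inside the gene was marked at 72.1 to 86.2, and no peak lay within 1 kb of the first 2 start clusters. Nearest to the second of these, the start of the extra-large protein, was a peak 1822 to 2055 bp away in each list. It stood at 65.0, 81.3, 68.4, 67.4, 64.1 and 70.3.

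Grb10, a growth factor receptor adaptor gene expressed from the maternal allele in most tissues and from the paternal allele in neurons, had no peak at its germline start, whose nearest peak lay 6492 to 8686 bp away. Its strongest peak was at 81.7 in Q7SST, 63.1 in Q111SST, 75.4 under cyproheptadine, 87.5 under loxapine, 49.9 under DKI and 71.8 under meclizine. These values do not describe 1 site, since the strongest peak lay near the upstream starts in Q7SST, Q111SST and DKI and near the last start cluster under cyproheptadine, loxapine and meclizine. At the last cluster alone the values were 72.3, 53.9, 75.4, 87.5, 48.9 and 71.8, and at the second cluster 81.7, 63.1, 51.5, 58.8, 49.9 and 59.9. Where the peak had to overlap a start, 5 lists marked Grb10, with a mean of 44.6 in place of 71.6. Mkrn3, a ring finger gene of the Prader-Willi locus, was at 50.0 in Q7SST, 44.1 in Q111SST, 19.4 under loxapine, 18.5 under DKI and 37.0 under meclizine. Sfmbt2, a Polycomb group gene, was at 54.7, 69.3, 52.5, 65.6, 59.9 and 64.5, with Q111SST highest.

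Among the maternally expressed genes, Igf2r, the receptor that clears insulin-like growth factor 2, was at 77.2 in Q7SST, 95.9 in Q111SST, 92.7 under cyproheptadine, 90.8 under loxapine, 90.2 under DKI and 95.9 under meclizine. Q7SST stood below the 5 mutant lists. The peak covered the first start in Q7SST. In the other lists it overlapped the Q7SST peak, but its nearest base lay 443 to 560 bp from that start. A second start cluster of Igf2r was marked in all lists, at 26.6 to 49.9. Where the peak had to overlap a start, 5 lists marked Igf2r, Q7SST at its first start and the others at the second cluster. Their mean was 45.4 in place of 90.5.

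Ube3a, the ubiquitin ligase gene lost in Angelman syndrome, was at 85.3 in Q7SST, 79.7 in Q111SST, 89.9 under cyproheptadine, 94.8 under loxapine, 81.3 under DKI and 83.3 under meclizine. The peak was 3261 bp wide in Q7SST, 3312 in Q111SST, 3095 under meclizine and 2902 under cyproheptadine. Under loxapine 2 peaks stood in its place, and the value is that of the downstream one, 1582 bp wide and 276 bp from a start, while the upstream one, 647 bp wide, was at 80.8. Under DKI the value is that of an upstream peak of 700 bp, 204 bp from a start. A second start had a peak near the foot of the score range in 2 lists, at 0.0569 in Q111SST and 3.04 under meclizine. Blcap, the host gene of Nnat, was at 85.3, 88.9, 92.7, 91.5, 97.5 and 87.6 and had the highest mean of all, 90.6, followed by Igf2r at 90.5. Trappc9, a trafficking gene that holds Peg13, was at 88.3, 89.6, 83.5, 93.6, 77.2 and 88.1.

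Copg2, a coatomer gene beside Mest, was at 76.5 in Q7SST, 73.6 in Q111SST, 40.6 under cyproheptadine, 65.6 under loxapine, 32.2 under DKI and 69.1 under meclizine, and cyproheptadine and DKI were again low. H13, which encodes a signal peptide peptidase and hosts Mcts2, was at 76.8, 76.2, 64.5, 69.0, 61.3 and 74.8. Dcn, which encodes the matrix proteoglycan decorin and is known as a fibroblast gene, was at 66.4, 48.2, 25.6, 42.7, 34.8 and 44.7. Its imprinting is known from the placenta, and Q7SST held its highest value.

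Phlda2, a gene that limits placental growth, had the lowest mean of the 24 genes marked in all lists, 38.5. It was at 47.4 in Q7SST, 43.0 in Q111SST, 30.4 under cyproheptadine, 42.7 under loxapine, 33.5 under DKI and 33.7 under meclizine, and its cyproheptadine peak was 196 bp wide. Cdkn1c, a cell cycle inhibitor gene of the same cluster, was at 37.8 in Q7SST, 38.1 in Q111SST and 1.57 under meclizine, with widths of 1019, 245 and 601 bp. Ascl2, a trophoblast transcription factor gene, was at 13.2 in Q7SST and 24.9 under meclizine, under peaks of 445 and 243 bp. These are weak marks, beside medians of 74.3 to 80.8 over all marked genes of the lists.

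Ppp1r9a and Asb4 lie beyond Sgce on chromosome 6. Ppp1r9a, which encodes the actin-binding protein neurabin, was at 74.5 in Q7SST, 36.8 in Q111SST, 52.8 under loxapine and 27.6 under meclizine. At its first start cluster it stood at 63.0 in Q7SST, under a peak of 1799 bp, and at 20.6 in Q111SST, 52.8 under loxapine and 26.3 under meclizine under peaks of 201 to 790 bp. Asb4, a ubiquitin ligase adaptor gene, was marked at its second start, at 25.9 in Q111SST, 39.5 under loxapine, 41.9 under DKI and 53.5 under meclizine. It is the 1 imprinted gene that was marked in Q111SST and not in Q7SST.

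Nnat, Mcts2 and Magel2 were marked in Q7SST and in no other list. Of all genes marked in Q7SST 6.13% shared this pattern, and of protein-coding genes 4.65%, beside 3 of 31 imprinted genes. Their promoters, upstream of the start, are shown because these are the sites that differ. The Nnat stretch is chr2:157559828-157560077 (plus strand), the Mcts2 stretch chr2:152686898-152687034 (plus) and the Magel2 stretch chr7:62376729-62376978 (plus), from the RefSeq GRCm38.p6 genome, with any ZFP57 hexamer in capitals.
Nnat: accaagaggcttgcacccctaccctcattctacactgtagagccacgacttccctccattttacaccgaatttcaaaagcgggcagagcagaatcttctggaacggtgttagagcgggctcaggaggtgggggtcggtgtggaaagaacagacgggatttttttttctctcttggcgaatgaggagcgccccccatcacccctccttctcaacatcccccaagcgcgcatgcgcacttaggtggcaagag
Mcts2: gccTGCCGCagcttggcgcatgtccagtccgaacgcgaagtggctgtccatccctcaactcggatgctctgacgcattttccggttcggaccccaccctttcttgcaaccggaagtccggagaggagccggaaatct
Magel2: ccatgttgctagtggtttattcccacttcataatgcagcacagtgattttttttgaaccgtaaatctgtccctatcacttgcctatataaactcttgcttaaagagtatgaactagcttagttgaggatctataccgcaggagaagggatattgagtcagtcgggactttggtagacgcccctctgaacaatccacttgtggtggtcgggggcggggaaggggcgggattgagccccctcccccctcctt

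Nnat encodes neuronatin, a proteolipid of developing brain. Its Q7SST peak stood at percentile 37.8 and was 1400 bp wide, and in Q111SST the nearest peak to the first Nnat start lay 5034 bp away, at the main start of Blcap. The Q7SST peak at Nnat also marked a further Blcap start in Q7SST alone. With a window of 5 kb the Blcap peak marked Nnat in all 6 lists, and Mcts2 was marked in 3. Mcts2, a retrogene inside H13, was at 71.5 in Q7SST under a peak of 1084 bp. In Q111SST and under loxapine the nearest peaks lay 3507 and 3522 bp from its start, at percentiles 10.8 and 4.96, and in the other 3 lists at least 15419 bp away.

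Magel2, a MAGE family gene of the Prader-Willi locus, was at 38.9 in Q7SST under a peak of 1443 bp. Ndn, its neighbour that encodes the growth suppressor necdin, was not marked by GENCODE starts, but a Q7SST peak of 1654 bp at percentile 28.3 lay 1473 bp from the nearest of them and covered the RefSeq start of Ndn. No other list had a peak at that start. Between Ndn and Mkrn3 the Q7SST list held 5 peaks, whereas Q111SST, loxapine, DKI and meclizine held 1, at Mkrn3, and cyproheptadine held 0. Of the neural markers, 11 of 12 progenitor and 4 of 6 mature neuron genes were marked in Q7SST and 9 and 2 in Q111SST, of the fibroblast markers 4 and 5 of 7, and of the endothelial markers 1 and 2 of 4, beside 59.9% and 58.3% of protein-coding genes. Their part in this result was not tested.

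**Figure D4:**
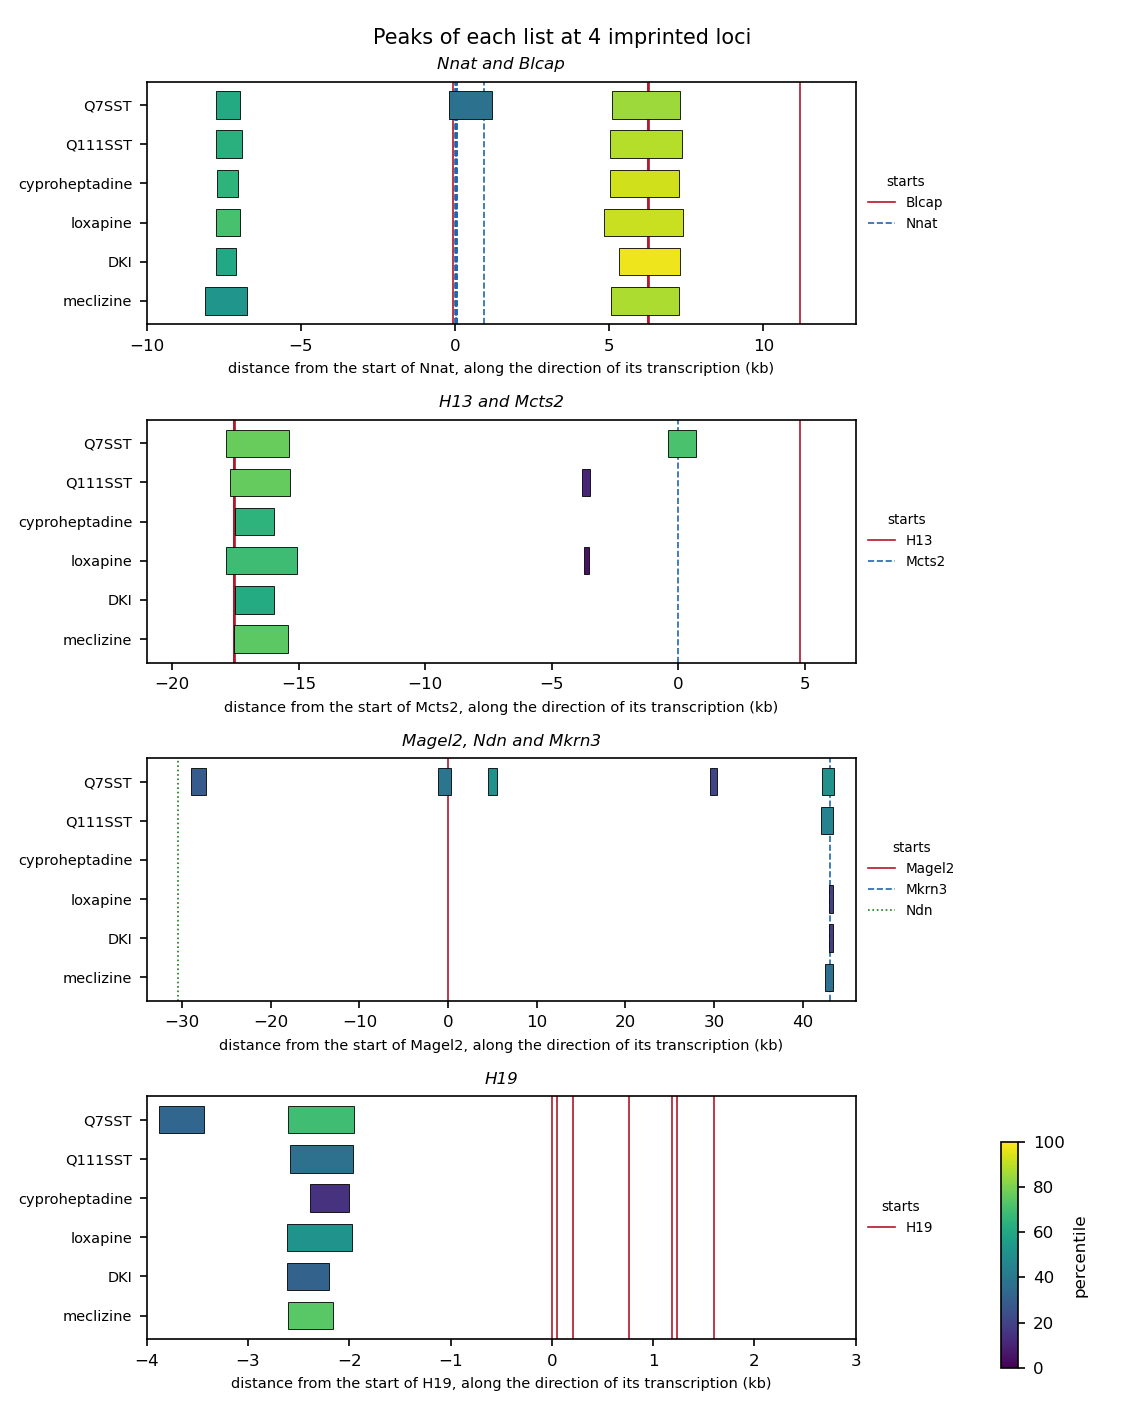
Peaks of each list (rows) by distance in kb from the start of Nnat, Mcts2, Magel2 or H19 along that gene's direction of transcription (x axes), with boxes drawn to scale and coloured by percentile and vertical lines at GENCODE starts. Peaks at Nnat, Mcts2 and Magel2 appear in Q7SST alone, and the peak upstream of H19 appears in every list, its nearest base 1954 to 2201 bp from the start.

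No GENCODE start of 14 imprinted genes had a peak within 1 kb in any list. With RefSeq starts added the number was 13, since Ndn was then marked in Q7SST. For Igf2, the fetal growth factor gene, the nearest peak lay 71008 to 72498 bp away. None of the 5 genes of the Dlk1-Meg3 cluster was marked, namely Dlk1, Meg3, Rtl1, Rian and Mirg. For Meg3, its maternally expressed noncoding RNA, the nearest peak lay 77483 to 77608 bp away, and for Dlk1, a Notch-related ligand gene, 10607 to 167020 bp. Rian had a peak 1603 to 1728 bp from a start in each list and Mirg had a peak 1496 to 1585 bp away in Q111SST, loxapine and meclizine, just outside the window. The same held for Ddc, the dopa decarboxylase gene beside Grb10, at 1528 to 1936 bp in each list.

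The nearest peaks to Zim1, Slc22a2, Slc22a3 and Slc22a18 lay at least 10663 bp away in every list. Zim1 encodes a zinc finger protein and the others are membrane transporters. Nap1l5, a nucleosome assembly gene inside Herc3, had its nearest peak 8063 bp away under loxapine and at least 44165 bp away in the other lists, although its start is a germline start. Just inside the window, the nearest base of the Grb10 peak lay 941 bp from a start under DKI and 885 bp in Q111SST. By start cluster the germline start of Zrsr1 was nearer still to the edge, with its peak 965 bp away under cyproheptadine, 990 under loxapine and 945 under DKI, and its place among the 13 germline starts marked in all lists rests on these.

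H19, a maternally expressed noncoding RNA gene, was unmarked at its starts, yet each list had a peak upstream of it. The peak lay 1954 to 2201 bp from the first start, at percentile 69.5 in Q7SST, 36.8 in Q111SST, 14.4 under cyproheptadine, 51.2 under loxapine, 30.9 under DKI and 74.1 under meclizine, with widths of 652, 618, 386, 651, 413 and 448 bp. Meclizine and Q7SST were highest and cyproheptadine lowest. Q7SST had a second peak further upstream, from -3879 to -3439 bp relative to the start, at percentile 32.6, and no other list had one there. The imprinting control region of Igf2 and H19, to which the insulator protein CTCF binds on the maternal allele, is known to lie upstream of H19. This peak was looked at after its values had been seen. The 189 bases that the peak covered in all 6 lists, chr7:142580344-142580532 of GRCm38.p6, are shown on the minus strand, along H19. They hold 6 CpG and no ZFP57 hexamer, and their GC content is 47.1%.
H19 upstream: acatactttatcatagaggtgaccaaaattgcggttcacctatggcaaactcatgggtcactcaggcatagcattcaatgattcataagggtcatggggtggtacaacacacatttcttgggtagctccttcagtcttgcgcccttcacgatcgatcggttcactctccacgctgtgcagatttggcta

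Beside Q111SST, the 5 other lists were set side by side, each against the same list, so the comparisons share Q111SST and are not independent of one another. Of the 18 imprinted genes not marked in Q111SST, Q7SST had gained 4 (22.2%, beside 3.72% of all unmarked genes), namely Nnat, Magel2, Ascl2 and Mcts2. Meclizine had gained 1, Ascl2 (5.56%, beside 1.24%). The background for gains was 0.53% under cyproheptadine, 1.6% under loxapine and 0.413% under DKI, and no imprinted gene was gained in these lists.

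Of the 28 imprinted genes marked in Q111SST, cyproheptadine lacked 4 (14.3%, beside 9.19% of all marked genes), namely Ppp1r9a, Asb4, Mkrn3 and Cdkn1c. DKI lacked Ppp1r9a and Cdkn1c (7.14%, beside 8.53%). Loxapine lacked Cdkn1c (3.57%, beside 3.51%) and Q7SST lacked Asb4 (3.57%, beside 6.79%). Meclizine lacked 0, beside 3.05% of all genes. The 4 genes lost were all at or below percentile 44.1 in Q111SST. Gains and losses together, 5 in Q7SST and 2 under DKI, became 8 in each list at the stricter score threshold, where only Mcts2 of the 4 genes gained in Q7SST was still gained and the other gains were Airn, Dcn, Mkrn3, Phlda2 and Ppp1r9a. With lists of equal size Nnat, Magel2 and Mcts2 were still gained and Ascl2 was not. The 4 under cyproheptadine became 10 where the peak had to overlap a start.

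Strength was compared for genes marked in both lists, and a difference of 10 percentile points or more was counted. A percentile depends on the length of its list, and Q111SST held 40406 peaks, Q7SST 38392, cyproheptadine 33721, loxapine 45564, DKI 30758 and meclizine 38577. Each count is therefore also given with every list cut to its 30758 strongest peaks, an alternative added to these counts after they had been seen.

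Under DKI 15 of 26 imprinted genes were lower by that much (57.7%, beside 39.5% of all genes) and 1 was higher (3.85%, beside 4.19%). The median difference was -11.9 points for the imprinted genes and -6.70 for all genes. Copg2 differed most, by -41.3 points, followed by Peg3 and Usp29 at -28.0, Mkrn3 at -25.6, Snrpn at -24.8 and Kcnq1ot1 at -22.2. The others were Inpp5f, Airn, Plagl1, H13, Dcn, Grb10, Trappc9, Mest and Impact, between -18.7 and -10.6, and the higher gene was Asb4 at 16.1. With lists of equal size 7 were lower (26.9%, beside 21.8%) and 5 higher (19.2%, beside 12.4%), and the median difference was -2.43 points, against -1.68 for all genes. The 7 were Copg2, Peg3, Usp29, Snrpn, Kcnq1ot1, Inpp5f and Plagl1. The median of all marked imprinted genes was then higher under DKI than in Q111SST, 56.7 against 50.3, the reverse of the order in the full lists.

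Under cyproheptadine 11 of 24 were lower (45.8%, beside 27.3% of all genes) and 4 were higher (16.7%, beside 4.17%). The median difference was -5.69 points, against -3.98 for all genes. Snrpn differed by -37.6, Peg3 and Usp29 by -36.3, Copg2 by -33.0, Dcn by -22.6 and Mest by -19.5. Sfmbt2, Gnas, Phlda2, H13 and Inpp5f lay between -16.9 and -11.0. Higher were Grb10 at 12.4, Peg10 at 11.9, Sgce at 11.3 and Ube3a at 10.2, of which Grb10 and Sgce were read at another peak than in Q111SST, as was Gnas among the lower genes. At the sites of their Q111SST values both directions turn, since the second start of Sgce was at 27.4 under cyproheptadine against 60.2, and the second cluster of Grb10 at 51.5 against 63.1. With lists of equal size 8 were lower (33.3%, beside 18.2%) and 4 higher (16.7%, beside 11.1%), and the median difference was -1.96 points, against -1.08 for all genes. Phlda2, H13 and Inpp5f were then no longer lower by 10 points. The median of all marked imprinted genes, which includes genes marked in 1 of the 2 lists, was higher under cyproheptadine than in Q111SST in the full lists (64.8 against 62.2) and in lists of equal size (61.4 against 50.3).

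Under loxapine 7 of 27 were higher (25.9%, beside 9.2%) and 1 was lower (3.70%, beside 10.7%). Grb10 differed by 24.4 points, Peg10 by 21.2, Sgce by 20.6, Zrsr1 by 18.3, Ppp1r9a by 16.0, Ube3a by 15.1 and Asb4 by 13.6. The lower gene was Mkrn3 at -24.7. Grb10, Sgce and Ppp1r9a were read at another peak than in Q111SST, and at its first start cluster Ppp1r9a was at 52.8 under loxapine and 20.6 in Q111SST. Ube3a was read at the downstream of 2 peaks under 1 wide Q111SST peak, and the upstream one, at 80.8, differs from the 79.7 of Q111SST by under 10 points. At the sites of their Q111SST values Sgce was at 66.2 under loxapine against 60.2, and Grb10 at 58.8 against 63.1. This balance did not hold with lists of equal size, where 8 of 26 were lower (30.8%, beside 23.2%) and 6 higher (23.1%, beside 8.03%). The median difference was then -2.43 points, against -2.65 for all genes. In the full lists it was -0.28, against -0.34 for all genes.

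Under meclizine 3 of 28 were higher (10.7%, beside 5.38%) and 2 lower (7.14%, beside 11.4%). Asb4 differed there by 27.7, Peg10 by 13.7 and Sgce by 13.1, and Cdkn1c by -36.6 and Gnas by -12.1, of which Sgce and Gnas were read at another peak than in Q111SST. At the second start of Sgce the values were 64.5 under meclizine and 60.2 in Q111SST. With lists of equal size 5 of 27 were higher (18.5%, beside 7.79%) and 1 lower (3.70%, beside 12.1%).

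In Q7SST 5 of 27 were higher (18.5%, beside 9.82%) and 5 were lower (18.5%, beside 14.4%). Ppp1r9a differed by 37.7 points, Grb10 by 18.6, Dcn by 18.2, Peg13 by 16.6 and Sgce by 16.3. On the other side Snrpn differed by -21.8, Kcnq1ot1 by -18.7, Igf2r by -18.6, Impact by -18.1 and Sfmbt2 by -14.7. The median difference over the 27 genes was -0.70 points, against -1.07 for all genes. With lists of equal size 6 were higher (22.2%, beside 13.1%) and 5 lower (18.5%, beside 15.2%). Sgce and Impact were read at starts without a basic transcript. With basic transcripts alone 4 genes were higher (14.8%, beside 9.65%) and 4 lower (14.8%, beside 14.3%), and neither was among them. At its germline start Impact was at 70.6 in Q7SST against 73.6 in Q111SST. Sgce at its first start was at 58.5 against 59.6. Trappc9, which holds Peg13, differed by -1.26.

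**Figure D5:**
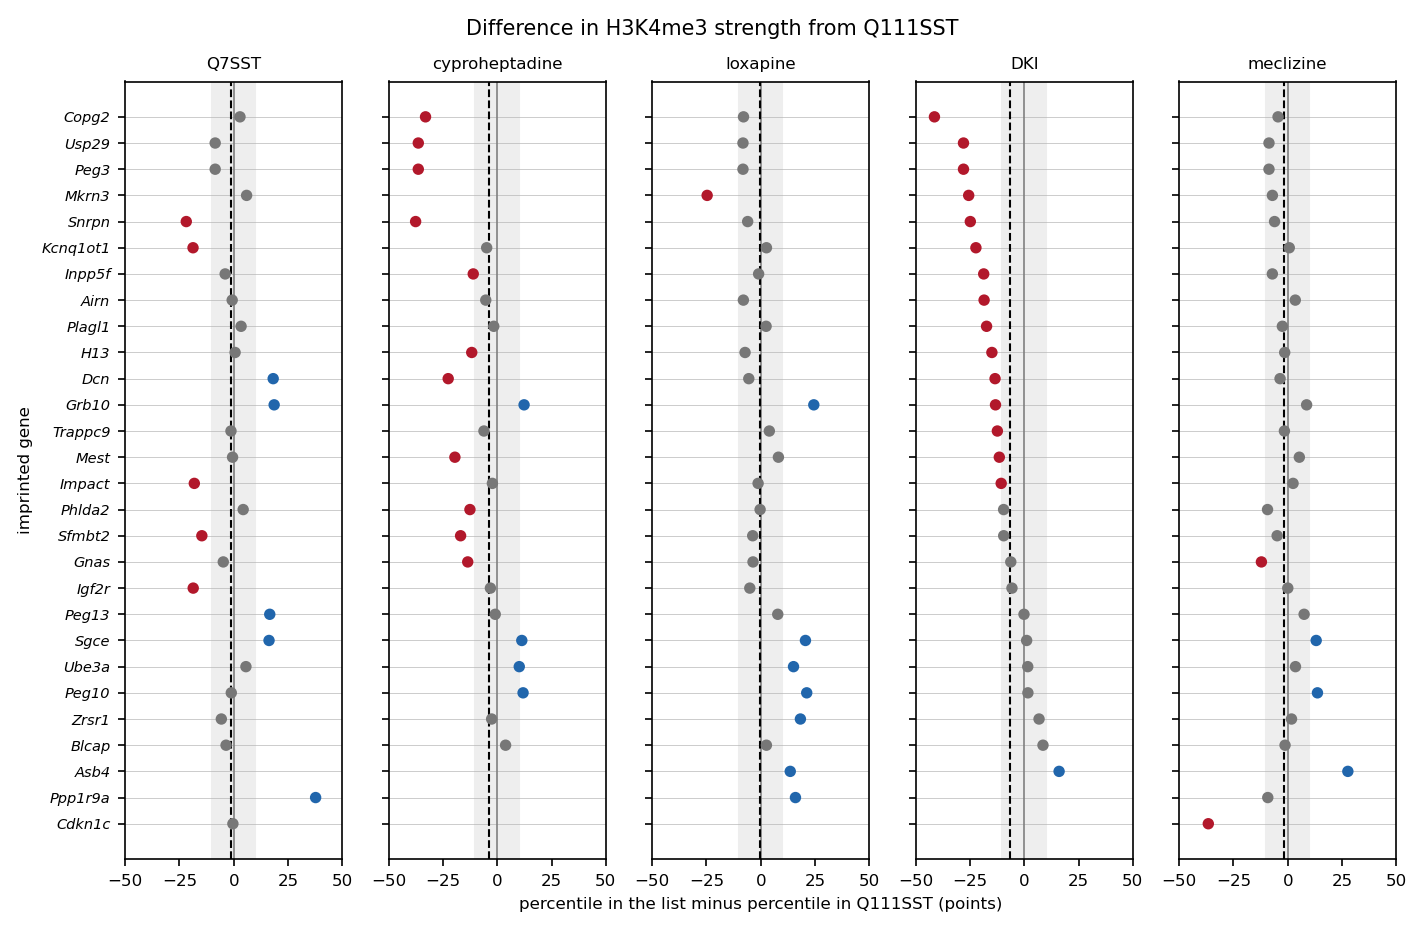
Percentile of each imprinted gene in a list minus its percentile in Q111SST (x axis, points), for the 28 genes marked in Q111SST (rows, ordered by the DKI difference), with 1 panel per list. Red points are 10 points or more lower, blue points 10 or more higher, the grey band is the range within 10 points and the dashed line is the median over all genes; under DKI 15 points are red and under loxapine 7 are blue, counts for the full lists that differ in length.

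The widths of the imprinted peaks had medians below those of all marked genes in each list, with values of 1604 bp in Q7SST (1657 over all marked genes), 1697.5 in Q111SST (1738), 1218 under cyproheptadine (1509), 1389 under loxapine (1648), 1346.5 under DKI (1427) and 1291 under meclizine (1622). The order turned with basic transcripts in Q7SST (1799 against 1671) and Q111SST (1767.5 against 1747), and within 5 kb in Q7SST (1604 against 1535). The strongest peak was 3 kb or wider at 6 of 31 imprinted genes in Q7SST (19.4%, beside 5.14% of all marked genes), 4 of 28 in Q111SST (14.3%, beside 6.36%) and 3 of 29 under meclizine (10.3%, beside 5.52%). In the cyproheptadine, loxapine and DKI lists Kcnq1ot1 alone had a strongest peak of that width, beside 3.16%, 5.3% and 2.28% of all marked genes. Weaker peaks are not in these counts. Among them are those of 3019 to 3528 bp at the germline start of Impact in every list, and that of 3151 bp at the first start of Sgce in Q7SST. Grb10 reached 3293 bp in Q111SST, at its second start cluster. The strongest peak covered a start for 25 of 31 imprinted genes in Q7SST (80.6%, against 81.0% of all marked genes), for 75.0% in Q111SST (80.3%), 50.0% under cyproheptadine (74.9%), 70.4% under loxapine (74.9%), 65.4% under DKI (77.7%) and 62.1% under meclizine (81.7%). The imprinted share was below that of all marked genes in each list, by the least in Q7SST.

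The 46 genes held 130 start clusters, where starts less than 1 kb apart were joined. Of these, 42 were marked in Q7SST (32.3%, beside 24.1% of the 83841 start clusters of all genes) and 39 in Q111SST (30.0%, beside 23.9%). In the compound lists it was 33 under cyproheptadine (25.4%, beside 21.6%), 36 under loxapine (27.7%, beside 24%), 35 under DKI (26.9%, beside 21.5%) and 41 under meclizine (31.5%, beside 23.7%). In all 6 lists 32 were marked (24.6%, beside 19.8%), and 84 were marked in none (64.6%, beside 72.5%). More than 1 marked cluster in the same gene was found for Igf2r, Sgce, Ppp1r9a, Grb10, Zrsr1, Blcap, Gnas, Ube3a, Impact and Inpp5f.

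Of 20 genes that act on imprints 16 were marked in all 6 lists, beside 53.4% of protein-coding genes, and the germ cell genes Ctcfl and Dppa3 were marked in none. Zfp57 stood at 82.0 in Q7SST, 76.6 in Q111SST, 60.2 under cyproheptadine, 66.8 under loxapine, 52.6 under DKI and 74.5 under meclizine. Dnmt3a, a de novo DNA methyltransferase gene, was at 32.6 in Q7SST, 46.2 in Q111SST, 12.2 under loxapine and 50.9 under meclizine, and Dnmt3l was marked under meclizine alone, at 21.8.

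Of 25 host and neighbour genes of the imprinted clusters, 12 were marked in all 6 lists and 11 in none, beside 53.4% and 37.1% of protein-coding genes. Klf14, a maternally expressed gene beside Mest, was marked in Q7SST alone, at 73.8. Tspan32, a neighbour of Ascl2, was at 54.7 in Q7SST, 44.1 in Q111SST, 25.0 under DKI and 34.8 under meclizine.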

How the data were processed

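H3K4me3 ChIP-Seq peaks of 6 conditions were used, 1 deposited list per condition, grouped by the sample labels. Chromatin was digested with micrococcal nuclease and sequenced as single-end 50 bp reads. The submitters' processing notes name mm10, Trimmomatic 0.36, Bowtie2, SAMtools 1.3 and MACS2, without their order. Per peak the authors deposited a position and a score, which is a whole number. Its scale, the peak threshold, any input control and whether replicates were pooled are not given in the sources used here, so scores were ranked within a list and the depth behind each list is unknown.

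Coordinates were counted from 1 on GRCm38, and the peaks of all 21 chromosomes lay within the chromosome lengths of that build. Peaks were matched to GENCODE vM21 transcript starts within 1 kb, and percentiles used the middle rank for tied scores. With 1 list per condition no test was made, and Wilson 95% intervals cover counting error only. The matching was tested on simulated data.

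The genes and the lists beside them were chosen with earlier results of these data known. Values in every list are given for genes marked in 1 to 5 lists, differing by 10 points or more from Q111SST, having a strongest peak of 3 kb or more, having 2 or more marked start clusters, or among the 5 highest or 5 lowest means. This rule took in all 32 genes marked in any list. Alternatives were a stricter score threshold, lists of equal size, windows of 0 and 5 kb, merged peaks, basic transcripts and added RefSeq starts. Scripts ran in Python 3.11.15 with pandas 2.3.3, numpy 2.4.6, pysam 0.24.0, scipy 1.17.1 and matplotlib 3.10.9.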

Additional observations from a re-analysis of the deposited data

How the results depend on the processing

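No paired analysis was possible because the 6 lists have no replicate numbers beyond 1 and no test was made. The median percentile of imprinted genes lay below that of all marked genes in 6 of 6 lists under every setting tried, by 8.64 to 29.7 points. Merging peaks within 1 kb, basic transcripts and RefSeq starts added to GENCODE starts (chosen after seeing the data) kept every count within 1.5 times and every median within its interval, although the median width then stood above that of all marked genes in 2 lists with basic transcripts. At a score of 47 or more in all lists, which carries any difference in scale between lists, 14 imprinted genes were marked under cyproheptadine (30.4%, beside 22.8% of all genes), 14 under DKI (30.4%, beside 22.9%) and 12 in all lists (26.1%, beside 20.9%). Genes gained or lost against Q111SST then numbered 8 in Q7SST, 2 under loxapine, 8 under DKI and 4 under meclizine. Medians there were 39.7 in Q111SST, 41.6 under cyproheptadine, 51.7 under loxapine, 30.0 under DKI and 47.0 under meclizine, ranked among fewer and stronger peaks. With lists cut to 30758 peaks, 2 genes were gained or lost under loxapine and 2 under meclizine, and the Q111SST median was 50.3. Where the peak had to overlap a start, 12 genes were marked in all lists (26.1%, beside 19.9%), and 10 were gained or lost under cyproheptadine, 4 under loxapine and 5 under DKI. Within 5 kb, 4 were gained or lost under DKI and 2 under meclizine. The 13 germline starts marked in all lists became 5 at the stricter score, 12 with equal lists and 4 where the peak overlaps the start, settings added after seeing the data. Genes lower or higher than Q111SST by 10 points or more were recounted under settings added after seeing the data. At the stricter score 3 were lower in Q7SST, 5 under cyproheptadine, 4 under loxapine, 8 under DKI and 1 under meclizine, and 7 higher under meclizine. With equal lists 8 were lower under loxapine, 7 under DKI and 1 under meclizine, and 5 higher under DKI and 5 under meclizine. Where the peak overlaps a start 3 were lower in Q7SST, 6 under cyproheptadine and 2 under loxapine, and 1 higher under cyproheptadine, 3 under loxapine and 1 under meclizine. Within 5 kb 2 were higher under DKI and 6 under meclizine. With lists cut to equal size, which ranks a weak mark among fewer peaks, the means of Ppp1r9a, Asb4, Nnat, Magel2, Phlda2 and Ascl2 were lower by more than 1.5 times. A list of fewer peaks can lack a weak mark, and which marks were lost to depth was not tested.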
